A study of Mus musculus with 7 samples.

Results

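The 10 genes described here encode components of the complement system and the receptors for its cleaved fragments: the C1q chains C1qa, C1qb and C1qc, the components C2, C3, C4b, Cfb and Cfp, and the receptors C3ar1 and C5ar1. They were taken by gene symbol from the 17920 genes of the deposited table, and all 10 were found. Of these, 9 averaged 1 FPKM or more and were tested among 11378 genes. C3ar1 was below that level and is given by its values. FPKM counts fragments per kilobase of a transcript, relative to the mapped total, so levels of different genes can be compared per length.

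The study profiled RNA of whole spleen from 7 C57BL/6 mice of 8 weeks, 4 wild type and 3 lacking GdX, the product of the X-linked gene Ubl4a, to ask how loss of GdX alters expression after lipopolysaccharide (LPS). All 7 mice had received 20 mg/kg LPS into the peritoneum. Spleens were taken at 90 min from 2 wild-type and 2 GdX-deficient mice, and at 6 h from 2 wild-type mice and 1 GdX-deficient mouse. The labels write the deficient genotype as GdX-/- and, in the treatment text, as GdX-/Y, and do not name the deleted exons or the tissues in which the gene was lost. No spleen without LPS was analysed here, so no level can be set against one before LPS. The labels name the source both as splenocytes and as spleen. Since the whole organ was crushed, a lower value can reflect fewer cells of a type or less RNA per cell, and these cannot be told apart.

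Complement is a cascade of plasma proteins that tags microbes and dying cells. C1q recognises antibody bound to a surface and starts the classical pathway, whose convertase is built from C4 and C2. Both that enzyme and the convertase of the alternative pathway, built from C3b and factor B and stabilised by properdin, cleave C3, and the small fragments C3a and C5a released downstream attract and activate leukocytes through their receptors. Macrophages of the spleen are a known source of C1q, unlike most plasma complement proteins, which come largely from the liver.

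The members fall into gene clusters. C1qb, C1qc and C1qa lie side by side on the minus strand of chromosome 4 (chr4:136880126-136886200, chr4:136889801-136892936 and chr4:136895916-136898844 in GRCm38.p6) within 18719 bases. C4b (chr17:34728139-34743902), Cfb (chr17:34856374-34862514) and C2 (chr17:34862602-34882100) lie in the major histocompatibility region, with 87 bases between Cfb and C2 on the same strand. C3 is farther along that chromosome (chr17:57203967-57228136), Cfp is on the X chromosome (chrX:20925454-20931555), C5ar1 on chromosome 7 (chr7:16246743-16259540) and C3ar1 on chromosome 6 (chr6:122847140-122856157). C4b has a close copy, C4a, listed at 0.14 to 0.68 FPKM, and fragments may have been split between the copies, so C4b values are uncertain to that extent. The same holds where transcripts of the neighbours Cfb and C2 run into each other.

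RefSeq start sites were available for 6 of the 10 genes (C1qb, C1qc, C3, Cfp, C3ar1 and C5ar1), and were not used here for C1qa, C2, C4b and Cfb. The 250 bases before the start of C3, and of the C1q chains with the smallest and the largest difference over time in wild type, are shown because these genes carry the contrasts described next. All 3 are on the minus strand of GRCm38.p6, written 5′ to 3′, at chr17:57228137-57228386 for C3, chr4:136886201-136886450 for C1qb and chr4:136892915-136893164 for C1qc. Capitals mark a match to the C/EBP motif TTGCNNAA.
C3: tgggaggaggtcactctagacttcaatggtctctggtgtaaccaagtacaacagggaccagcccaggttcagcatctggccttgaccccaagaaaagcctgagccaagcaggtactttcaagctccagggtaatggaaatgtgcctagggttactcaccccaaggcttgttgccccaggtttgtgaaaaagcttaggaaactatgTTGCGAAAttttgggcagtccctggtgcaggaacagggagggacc
C1qb: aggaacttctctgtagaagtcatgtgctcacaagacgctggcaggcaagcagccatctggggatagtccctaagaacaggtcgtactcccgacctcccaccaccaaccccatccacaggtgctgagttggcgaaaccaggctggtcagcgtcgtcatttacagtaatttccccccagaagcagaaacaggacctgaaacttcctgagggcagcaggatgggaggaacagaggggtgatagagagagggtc
C1qc: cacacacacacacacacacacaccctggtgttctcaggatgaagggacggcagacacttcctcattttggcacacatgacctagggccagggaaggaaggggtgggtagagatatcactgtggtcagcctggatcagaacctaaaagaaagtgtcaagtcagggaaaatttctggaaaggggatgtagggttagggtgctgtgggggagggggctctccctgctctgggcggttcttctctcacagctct
In windows of 250 bases before to 50 bases after the start, both strands were searched for 4 motifs of factors that act downstream of LPS. The NF-kB core GGANTTTCC is in 1.25% of all 32851 promoters, the STAT motif TTCNNNGAA in 8.30%, the interferon response motif GAAANNGAA in 8.56% and the C/EBP motif in 10.8%. Of the 6 members, C3 held a C/EBP match, TTGCGAAA, at 45 to 38 bases before the start (-45 to -38). C5ar1 held an interferon response match on the opposite strand, TTCCTTTTC, at -66 to -58. The printed C1qb and C1qc stretches held none of the 4. These letters are a description of the windows and say nothing of binding.

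Depth was close to equal, estimated at 19500000 to 21800000 fragments per library. Ubl4a was listed at 5.62 and 7.50 FPKM in wild type and 4.03 and 5.69 in GdX-deficient spleen at 90 min, and at 11.88 and 14.01 against 10.56 at 6 h. The genotypes thus overlapped at 90 min, and the deposited gene value alone does not check the genotype labels. The predicted gene Gm44504, chosen after its values were seen, was at 14.52 to 51.1 FPKM in the 4 wild-type and 0.66 to 1.86 in the 3 GdX-deficient libraries. Globin genes took 7.73% to 30.9% of a library's FPKM sum, less at 6 h than at 90 min in each genotype, and the median of all genes moved with the scaling. For the genotype difference at 90 min that median was 0.07 on the log2 scale as deposited, 0.01 after quantile normalization and 0.25 after rescaling without the globin genes. The second GdX-deficient library at 90 min stood apart in neutrophil markers, whose 11 genes summed to 4937 FPKM there, against 824, 1132 and 1288 in the remaining libraries of that time.

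**Figure D1:**
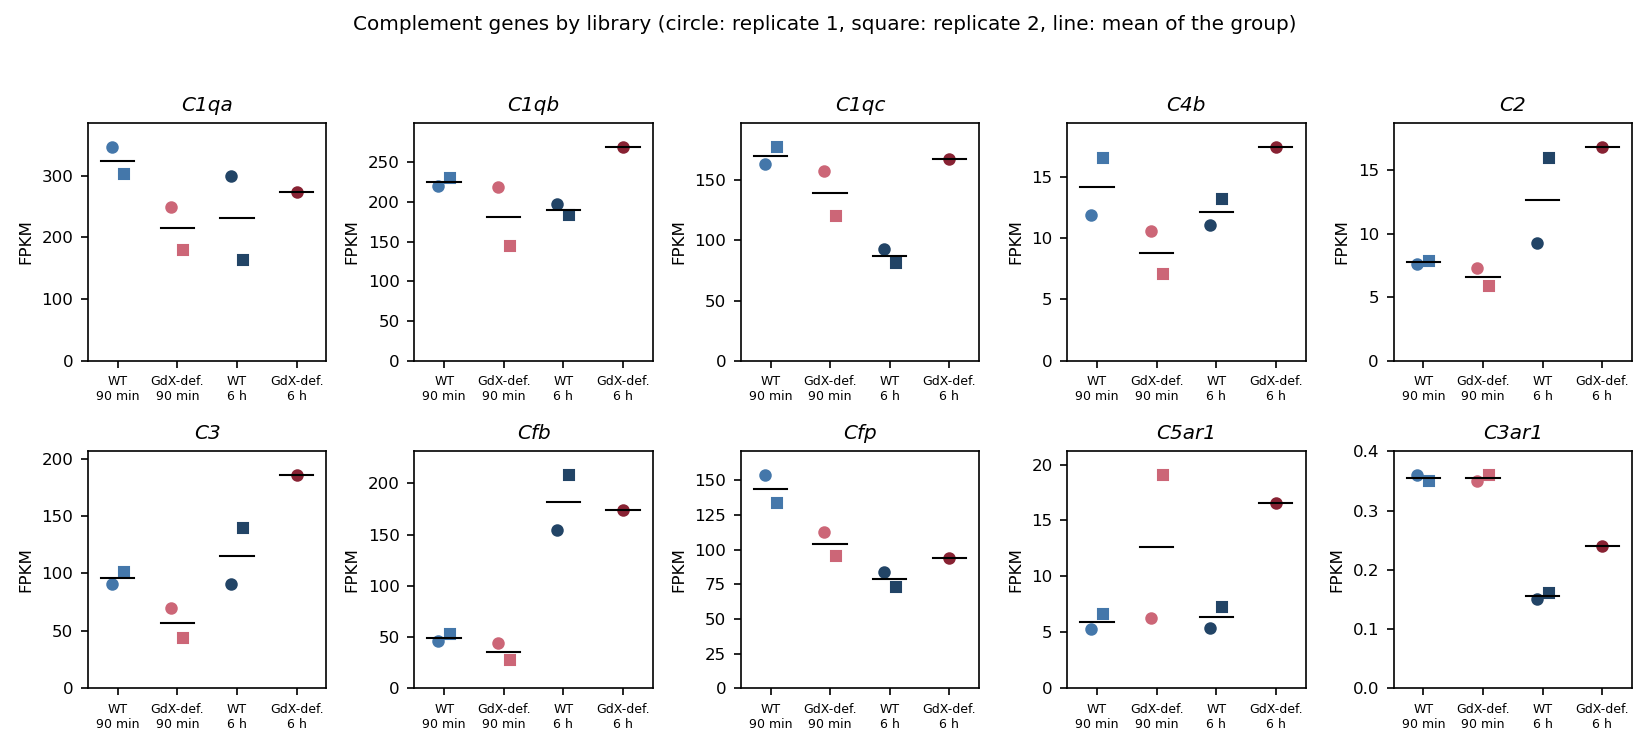
FPKM of the 10 complement genes in each of the 7 libraries, by genotype and time, with every axis starting at 0; circles are replicate 1, squares replicate 2, and black lines group means. Cfb separates 6 h (154.56 to 208.29) from 90 min (27.24 to 52.73) in both genotypes, and the second GdX-deficient library at 90 min is the lowest at that time for the 8 components and the highest for C5ar1.

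By mean level over the 7 libraries, the C1q chains were the most abundant members, at 259 FPKM for C1qa, 209 for C1qb and 137 for C1qc. Properdin (Cfp) at 107, C3 at 103 and factor B (Cfb) at 101 FPKM followed close together, and their ranges over the libraries overlapped widely. C4b at 12.5, C2 at 10.1 and C5ar1 at 9.50 FPKM formed a lower tier whose ranges also overlapped. C3ar1, the C3a receptor, came last at 0.281 FPKM. The order differed between times: at 6 h Cfb was above C1qc in all 3 libraries, and in the second wild-type library (208.29 FPKM) it was the highest of the 10. Of the markers of hepatocytes, 3 of 5 genes were in the table and summed to 0.16 to 0.58 FPKM, so transcripts that define liver cells were near 0 in every library. Markers of red pulp macrophages, all 11 of them measured, summed to 340 to 838 FPKM.

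The 3 C1q chains assemble into 1 protein. Over time in wild type all 3 had negative differences, of which that of C1qc passed the test, and differences between the chains were not tested. C1qa, the A chain, was at 346.6 and 302.42 FPKM in wild type at 90 min, at 250.10 and 180.26 in GdX-deficient spleen at 90 min, at 299.61 and 163.30 in wild type at 6 h and at 273.76 in GdX-deficient spleen at 6 h. C1qb, the B chain, was at 220.05 and 230.22, then 219.21 and 144.09, then 197.54 and 183.28, and 269.18 FPKM in the same order. C1qc, the C chain, was at 163.76 and 177.69, then 157.94 and 120.47, then 92.65 and 80.84, and 168.18 FPKM. The 2 wild-type libraries at 6 h were the lowest of all 7 for C1qc, whereas for C1qb they lay inside the range at 90 min, and the wild-type C1qa values at 6 h were far apart.

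In wild type, C1qc averaged 171 ± 9.85 FPKM at 90 min and 86.7 ± 8.35 at 6 h (SD, n = 2 in each group). It fell by 0.97 on the log2(FPKM + 1) scale (SE 0.25, limma adjusted p = 0.0400). C1qa differed by -0.55 (SE 0.33, adjusted p = 0.310) and C1qb by -0.24 (SE 0.27, adjusted p = 0.607), neither past the threshold of 0.05. The C1qc call was lost without the second wild-type library at 6 h (adjusted p = 0.0611), without either wild-type library at 90 min (0.179 and 0.235) and without the filter on low values (0.0657). Without the first wild-type library at 6 h, C1qa passed as well, at -0.98 (adjusted p = 0.0438), and without the second it was at -0.11 (adjusted p = 0.859). The ratio of C1qc to C1qb in FPKM was 0.744 and 0.772 in wild type at 90 min, 0.469 and 0.441 in wild type at 6 h, 0.721 and 0.836 in GdX-deficient spleen at 90 min and 0.625 at 6 h. It was lowest in wild type at 6 h, and the GdX-deficient library at 6 h lay between that group and all 4 libraries of 90 min. Markers of red pulp macrophages moved in the same direction as C1qc, from 705 and 838 summed FPKM at 90 min to 340 and 409 at 6 h in wild type, with 708 in the GdX-deficient library at 6 h. Of those 11 markers, 10 had negative differences with time in wild type and 5 of them passed the test, against 6.32% of all genes called lower. Most other marker lists fell as well. All monocyte (7 of 7), B cell (5 of 5), T cell (5 of 5) and red cell precursor (6 of 6) markers had negative differences. Among dendritic and stromal cell markers 4 of 5 did in each, among marginal zone macrophage markers 2 of 4 and among neutrophil markers 5 of 11. The part of these cells in the C1qc result was not tested.

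Of the 5 convertase components, 1 passed the test over time in wild type, Cfb, which had the largest difference of the 9 tested members there. Factor B, the protease of the alternative convertase, was at 46.36 and 52.73 FPKM in wild type and 44.63 and 27.24 in GdX-deficient spleen at 90 min, and at 154.56 and 208.29 in wild type and 174.54 in GdX-deficient spleen at 6 h. Every library of 6 h lay above every library of 90 min, and the GdX-deficient value at 6 h lay between the wild-type ones. The wild-type means were 49.5 ± 4.50 and 181 ± 38.0 FPKM (SD, n = 2 in each group), and Cfb rose by 1.84 (SE 0.30, limma adjusted p = 0.00779), a 3.58-fold change in FPKM + 1. With genotype as a covariate over all 7 libraries it rose by 2.02 (SE 0.24, adjusted p = 0.00341). It passed in every alternative run, with adjusted p between 0.000198 and 0.0461 in wild type and between 0.00245 and 0.0344 over all libraries. Marginal zone macrophage markers (4 of 4 measured) were also higher at 6 h, at 287, 178 and 216 summed FPKM against 154, 134, 81.6 and 55.4 at 90 min. Most of that sum is Marco, at 38.9 to 128.72 FPKM at 90 min and 160.29 to 275.44 at 6 h, which passed over time with genotype as a covariate (1.30, limma adjusted p = 0.0385), while Cd209b and Timd4 had negative differences. Their part in the Cfb rise was not tested.

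C2, the protease of the classical convertase and the neighbour of Cfb, was at 7.62 and 7.85 FPKM in wild type and 7.30 and 5.85 in GdX-deficient spleen at 90 min, and at 9.27 and 15.97 against 16.82 at 6 h. Its libraries of 6 h were also all above those of 90 min, but the difference over time with genotype as a covariate was 0.85 (SE 0.26, limma adjusted p = 0.0768) and that in wild type 0.60 (SE 0.33, adjusted p = 0.262). It passed only without the first wild-type library at 6 h, among the single libraries left out, at 1.10 (adjusted p = 0.0374). The ratio of Cfb to C2 was 4.66 to 6.72 at 90 min and 10.4 to 16.7 at 6 h, so the neighbouring genes did not change by the same factor in these libraries.

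C3, the substrate of both convertases, was at 90.54 and 101.42 FPKM in wild type and 70.12 and 43.38 in GdX-deficient spleen at 90 min, and at 90.79 and 139.51 against 185.68 at 6 h. C4b, the covalently binding subunit of the classical convertase, was at 11.86 and 16.56, then 10.60 and 7.05, then 11.07 and 13.18, and 17.43 FPKM in the order wild type and GdX-deficient at 90 min, wild type and GdX-deficient at 6 h. Cfp, encoding properdin, was at 153.96 and 133.89, then 112.58 and 95.66, then 84.10 and 73.40, and 94.34 FPKM. For C3 and C4b the highest value was the GdX-deficient library at 6 h and the lowest the second GdX-deficient library at 90 min, while Cfp was highest in wild type at 90 min and lowest in wild type at 6 h. In wild type over time, C3 differed by 0.23 (limma adjusted p = 0.679) and C4b by -0.20 (adjusted p = 0.722), and the signs turned without the second wild-type library at 6 h for C3 (-0.08) and at 90 min for C4b (0.02). Cfp averaged 144 ± 14.2 and 78.8 ± 7.57 FPKM at the 2 times (SD, n = 2 in each group) and differed by -0.86 (SE 0.24, limma adjusted p = 0.0531). The Cfp difference passed the threshold after quantile normalization (adjusted p = 0.0303) and without the first wild-type library at 6 h (0.0458).

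The ratio of C3 to Cfb was 1.57 to 1.95 in the 4 libraries at 90 min, 0.587 and 0.670 in wild type at 6 h and 1.06 in the GdX-deficient library at 6 h. Of the 9 tested members, 2 therefore passed the test over time in wild type. Cfb was the 1 of 9 that was higher, against 4.39% of all genes, and C1qc the 1 of 9 that was lower, against 6.32%. In either direction 10.7% of all genes passed (499 higher and 719 lower, or 191 higher and 517 lower after rescaling without the globin genes). The median of the 9 members was -0.20, against 0.05 over all genes, and 0.02 without the second wild-type library at 90 min. With genotype as a covariate, 1 of 9 members passed, Cfb, among 5.44% of all genes in either direction and 2.79% higher. That fit called 318 genes higher and 301 lower, which became 305 and 578 after quantile normalization and 112 and 215 after rescaling without the globin genes. These shares rest on few members and are given beside one another as a description.

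**Figure D2:**
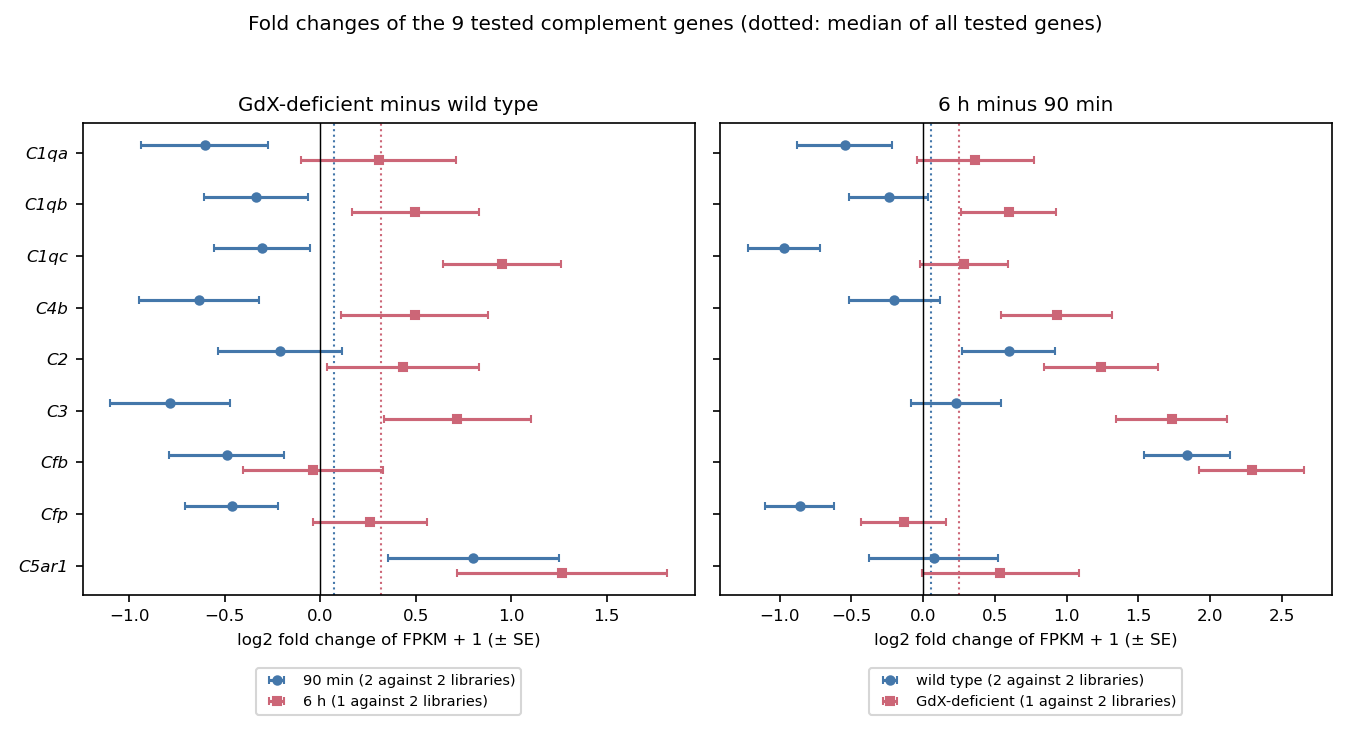
Log2 fold changes of FPKM + 1 (± SE) for the 9 tested genes, GdX-deficient minus wild type at each time (left) and 6 h minus 90 min in each genotype (right), with the median of all tested genes as dotted lines. Cfb is the highest in both genotypes over time (1.84 in wild type), and 8 of 9 genotype differences are negative at 90 min. The SE at 6 h and for GdX-deficient spleen assumes that the single library varies like the others.

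In GdX-deficient spleen the time course rests on 1 library at 6 h. The 6 h library was above both 90 min libraries by at least 2-fold for 3 of 9 members, against 4.09% of all genes. These were Cfb, with a log2 ratio of 2.29 to the mean of the pair, C3 with 1.73 and C2 with 1.24. C4b (0.93), C1qb (0.60), C1qa (0.37) and C1qc (0.28) were also above both, Cfp was below both (-0.14), and C5ar1 lay between the pair. In the fit that pools the spread of all groups, and so assumes that the single library varies like the others, 0 of 9 members passed (4 at an unadjusted p under 0.05), against 0.0% of all genes (910 at an unadjusted p under 0.05). The limma adjusted p was 0.0764 for Cfb, 0.154 for C3 and 0.373 for C2. Without either wild-type library at 6 h both Cfb (0.000285 and 0.000207) and C3 (0.00371 and 0.00302) passed, in fits that called 231 and 236 genes, and without either wild-type library at 90 min Cfb did (0.00534 and 0.00538), in fits that called 61 and 60. C1qa, C1qb, C1qc and C4b, whose differences over time were negative in wild type, were thus on the other side in the deficient genotype. The difference between the genotypes in their change with time is tested further on.

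At 90 min, 8 of the 9 tested members, all but C5ar1, had both GdX-deficient values below both wild-type values, and no single member passed the test. Over all genes, 23.4% were lower in that way. The median difference of the 9 members was -0.46 on the log2 scale, against 0.07 for all genes. C3 had the largest negative difference, at -0.79 (SE 0.31, limma adjusted p = 0.621, unadjusted p = 0.0329), with 96.0 ± 7.69 FPKM in wild type and 56.8 ± 18.9 in GdX-deficient spleen (SD, n = 2 in each group). C4b followed at -0.64 (SE 0.31), C1qa at -0.61 (SE 0.33), Cfb at -0.49 (SE 0.30) and Cfp at -0.46 (SE 0.24), with adjusted p between 0.621 and 0.630. C1qb at -0.34, C1qc at -0.30 and C2 at -0.21 were closer to 0, and the adjusted p of each was between 0.659 and 0.805. With limma, 0 of 9 members passed (1 of 9 at an unadjusted p under 0.05), against 0.0176% of all genes, which is 2 of 11378 (862 at an unadjusted p under 0.05).

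The count of 8 depended on the scaling. After quantile normalization 5 of 9 members (C1qa, C2, C4b, C3 and Cfp) lay below both wild-type libraries, against 25.5% of all genes. After rescaling without the globin genes 3 of 9 (C1qa, C3 and Cfp) did, against 12.7%. Each of the 2 GdX-deficient libraries was below both wild-type ones for those 8, but by different amounts: without the second the median of the members was -0.14, and without the first it was -0.64. As deposited, after quantile normalization and after rescaling, that median was -0.46, -0.38 and -0.26. In the same order C1qa was at -0.61, -0.38 and -0.40, C1qb at -0.34, -0.14 and -0.13, C1qc at -0.30, -0.10 and -0.10, C2 at -0.21, -0.38 and -0.03, Cfb at -0.49, -0.45 and -0.29 and Cfp at -0.46, -0.29 and -0.26. The first deficient library was below the lower wild-type value by little for several genes, as in C1qb with 219.21 against 220.05 FPKM and Cfb with 44.63 against 46.36. Summed markers of other cells differed between the same libraries. Stromal markers (5 of 5 measured) were at 58.9 and 40.1 summed FPKM in wild-type and at 17.4 and 16.5 in GdX-deficient spleen, and marginal zone macrophage markers (4 of 4) at 154 and 134 against 81.6 and 55.4. Red cell precursor markers (6 of 6) were at 520 and 595 against 1194 and 996. Red pulp macrophage markers overlapped, at 705 and 838 against 781 and 719 FPKM. Their part in the lower complement values was not tested.

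At 6 h the single GdX-deficient library was above both wild-type libraries for 7 of 9 members, and for 54.9% of all genes. The 2 exceptions, C1qa and Cfb, lay between the wild-type values. After quantile normalization 7 of 9 were above both, with C1qa in and C2 out, against 39.0% of all genes. After rescaling without the globin genes 8 of 9 were, all but Cfb, against 63.4%. Most marker sums were higher in the GdX-deficient library, at 708 FPKM against 340 and 409 for red pulp macrophages (11 genes). Monocytes (7 genes) were at 1200.5 against 487 and 597, and stromal cells (5 genes) at 39.8 against 19.7 and 27.5. The same held for neutrophils (2690 against 1175 and 818), B cells (1658 against 456 and 457) and T cells (204 against 116 and 90.6). It also held for dendritic cells (35.0 against 15.8 and 18.0) and red cell precursors (583 against 169 and 241). Marginal zone macrophage markers lay between the wild-type values, at 216 against 287 and 178. The part of these cells in the complement values was not tested. In a fit that pools the spread of all groups, and so assumes that the single library varies like the others, the differences were 0.95 for C1qc (SE 0.31, limma adjusted p = 0.0943), 0.72 for C3 (SE 0.38, adjusted p = 0.249) and 1.27 for C5ar1 (SE 0.55, adjusted p = 0.167). Those of C1qb (0.50), C4b (0.49), C2 (0.43), C1qa (0.31), Cfp (0.26) and Cfb (-0.04) were smaller, with adjusted p between 0.346 and 0.953. The median of all genes in this comparison was 0.32, or -0.02 after quantile normalization and 0.55 after rescaling without the globin genes, and the members' median was 0.49, 0.65 and 0.75 in the same order. Several members moved by over 1.5 times with the scaling, again in that order: C1qa was at 0.31, 0.65 and 0.58, C1qb at 0.50, 0.79 and 0.78, C2 at 0.43, 0.14 and 0.69, C4b at 0.49, 0.22 and 0.75, and Cfp at 0.26, 0.50 and 0.54. Cfb turned from -0.04 to 0.24 under both. Relative to the median of all genes, as deposited, C1qc was 0.63 higher, C3 0.40, C1qb 0.18, C1qa -0.01, Cfp -0.06 and Cfb -0.36. No member passed, 0 of 9 (2 at an unadjusted p under 0.05), against 3.96% of all genes (331 higher and 119 lower; 166 and 104 after quantile normalization; 216 and 39 after rescaling). Without the second wild-type library at 6 h, C3 at 1.02 (adjusted p = 0.0492) and C5ar1 at 1.45 (adjusted p = 0.0415) passed, in a fit that called 3035 genes against 450 with all libraries. Without the first, C3 was at 0.41 (adjusted p = 0.599). A difference of at least 2-fold, with the library above both, was seen for 1 of 9 members, C5ar1, and for 16.5% of all genes. The log2 difference of C5ar1 was 0.89 after quantile normalization, under 2-fold, and 1.51 after rescaling, and that of C1qc was 1.23 under both.

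For 6 of 9 members (C1qb, C1qc, C2, C4b, C3 and Cfp) the GdX-deficient libraries were below both wild-type libraries at 90 min and above both at 6 h, a pattern shown by 6.82% of all genes. After quantile normalization 4 of 9 showed it (C1qa, C4b, C3 and Cfp), against 4.80% of all genes, and after rescaling without the globin genes 3 of 9 (C1qa, C3 and Cfp), against 4.83%. The difference between the genotype effects at the 2 times, which is the same quantity as the difference between the genotypes in their change with time, was 1.50 for C3 (SE 0.50, limma adjusted p = 0.319), 1.25 for C1qc (SE 0.40, adjusted p = 0.295) and 1.13 for C4b (adjusted p = 0.493). It was positive for all 9 members, with a median of 0.84 against 0.19 for all genes, and it rests on the single GdX-deficient library at 6 h. The median of all genes was -0.05 after quantile normalization and 0.25 after rescaling. Of the 19 other complement genes described further on, 18 were positive, with a median of 1.01. No member passed, 0 of 9 (3 at an unadjusted p under 0.05), against 0.0703% of all genes, or 8 of 11378 (1136 at an unadjusted p under 0.05). C3 passed without the second wild-type library at 6 h, at 1.81 (adjusted p = 0.0399). With time as a covariate over all 7 libraries, the genotype difference was -0.31 to 0.20 for the 8 components, with adjusted p between 0.409 and 0.993, and 0 of 9 members passed (1 at an unadjusted p under 0.05), against 0.0439% of all genes (5 of 11378, and 3071 at an unadjusted p under 0.05).

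**Figure D3:**
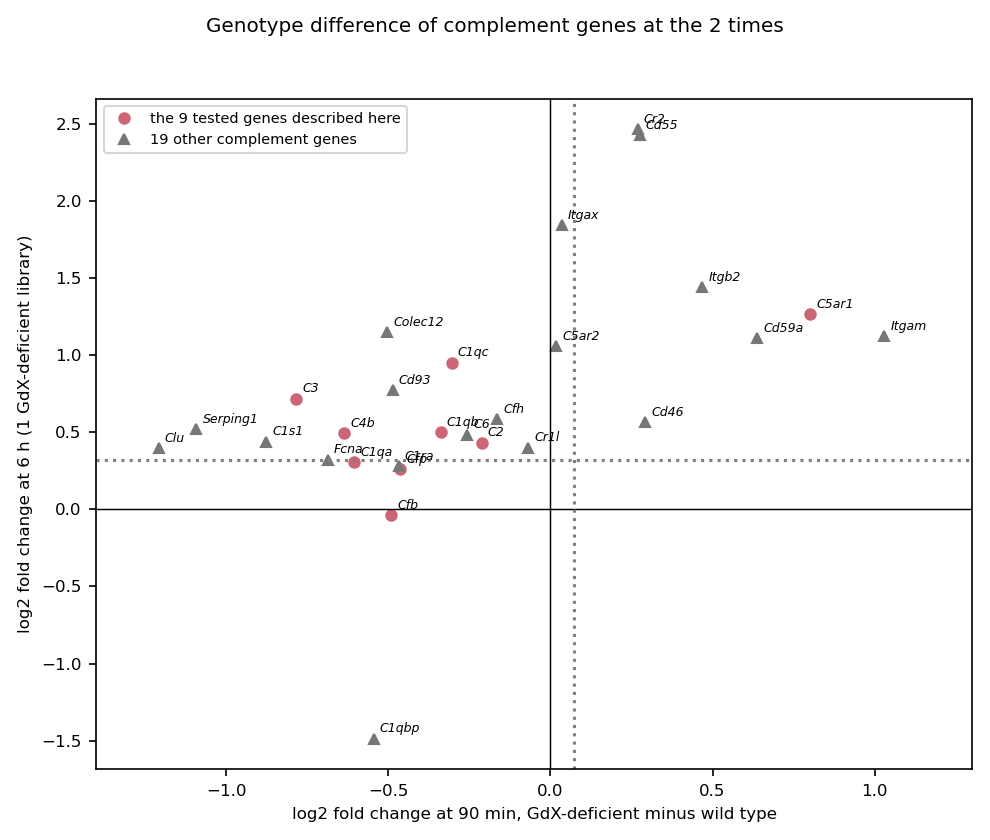
Log2 fold change of FPKM + 1, GdX-deficient minus wild type, at 90 min (x axis) and at 6 h (y axis, 1 GdX-deficient library) for the 9 tested members (circles) and 19 other complement genes (triangles), with medians of all genes dotted. Members other than C5ar1 lie to the left of 0 and, apart from Cfb at -0.04, above 0, and none of them passed the test at either time.

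The receptor for C5a, C5ar1, which draws neutrophils and macrophages to sites of complement activation, differed from the components. It was at 5.31 and 6.62 FPKM in wild type and 6.27 and 19.07 in GdX-deficient spleen at 90 min, and at 5.42 and 7.28 against 16.54 at 6 h. The high values were those of 2 GdX-deficient libraries, the second of 90 min and the one of 6 h, while the first deficient library lay between the wild-type values. At 90 min the difference was 0.80 (SE 0.45, limma adjusted p = 0.622), between 5.97 ± 0.926 and 12.7 ± 9.05 FPKM (SD, n = 2 in each group). It was 0.07 without the second GdX-deficient library and 1.53 without the first. With time as a covariate it was 0.99 (SE 0.34, adjusted p = 0.119). Without the first GdX-deficient library at 90 min it passed, at 1.40 (adjusted p = 0.0173), in a fit that called 1674 genes against 5 with all libraries, and without the second it was 0.67 (adjusted p = 0.374). Over time in wild type it differed by 0.07 (adjusted p = 0.936).

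The summed neutrophil markers were high in the same 2 libraries as C5ar1, at 4937 and 2690 FPKM, and at 818 to 1288 in the other 5. All 11 markers were measured, none was at 0 in every library, and 10 of 11 had a positive difference at 90 min with a median of 1.27, none past the threshold. Most of the sum came from S100a8 and S100a9 (1936 and 2118 FPKM in the 90 min library, 1222 and 1102 in that of 6 h). Markers of immature granules did not follow at 6 h, where Ngp was at 40.27 FPKM in the deficient and 52.74 and 48.19 in the wild-type libraries, Camp at 15.17 against 46.76 and 14.76, and Ltf at 5.08 against 5.50 and 4.25. Nor did Camp at 90 min, where it was at 49.12 and 58.99 FPKM in deficient and 120.21 and 58.53 in wild-type spleen (-0.63). The part of neutrophils in the C5ar1 values was not tested. C3ar1, the receptor for C3a, did not follow C5ar1. It was listed at 0.36 and 0.35 FPKM in wild type and 0.35 and 0.36 in GdX-deficient spleen at 90 min, and at 0.15 and 0.16 against 0.24 at 6 h. These values correspond to an estimated 30 to 32 fragments per library at 90 min, 14 and 15 in wild type and 21 in GdX-deficient spleen at 6 h. When genes of low level were kept in the fit, C3ar1 differed by -0.23 over time in wild type (SE 0.0364, limma adjusted p = 0.0457). With genotype as a covariate it differed by -0.19 over time and did not pass (limma adjusted p = 0.0898). On the log2(FPKM + 1) scale these values understate the change of such a low gene.

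**Figure D4:**
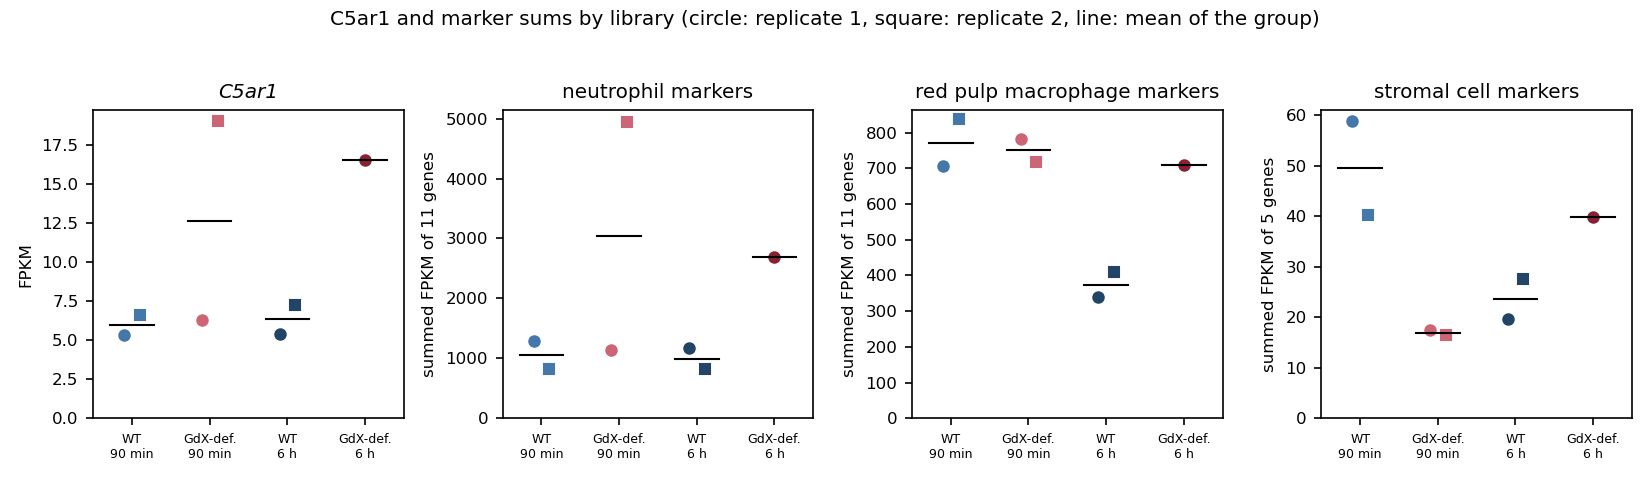
C5ar1 in FPKM and summed FPKM of neutrophil (11 genes), red pulp macrophage (11 genes) and stromal cell (5 genes) markers in each library; circles are replicate 1, squares replicate 2, black lines group means. C5ar1 and the neutrophil sum are highest in the second GdX-deficient library at 90 min (19.07 and 4937) and next highest in the single 6 h GdX-deficient library (16.54 and 2690).

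The wider complement system was read from a list of 46 further genes, of which 42 were in the table and 19 tested. Among the C1 proteases and lectin pathway genes, 4 of 13 were tested. As deposited, all 4 had both GdX-deficient values below the wild-type ones at 90 min, as did 23.4% of all genes. The share of all genes was 25.5% after quantile normalization and 12.7% after rescaling, but the list was not counted under these scalings. C1s1, encoding the C1s protease, was at 20.91 and 16.85 FPKM in wild type and 10.72 and 8.90 in GdX-deficient spleen, a difference of -0.88 (SE 0.27, limma adjusted p = 0.573). Fcna, encoding the pattern recognition protein ficolin A, was at 136.51 and 137.80 against 90.76 and 79.24 FPKM, a difference of -0.69 (SE 0.24). C1ra (-0.47, adjusted p = 0.626) and Colec12 (-0.50, adjusted p = 0.626) were the others, and none of the 4 passed.

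Of 16 regulators, 7 were tested. Clu, encoding clusterin, an inhibitor of the terminal complex, was at 188.35 and 220.79 FPKM in wild type and 136.01 and 56.40 in GdX-deficient spleen at 90 min, a difference of -1.21 (SE 0.37, limma adjusted p = 0.573). Serping1, encoding the C1 inhibitor, was at 30.91 and 31.63 against 18.62 and 10.68 FPKM, a difference of -1.09 (SE 0.34, adjusted p = 0.573). Both were lower in each GdX-deficient library, and neither passed. Cd59a, an inhibitor of the membrane attack complex (6.56 and 8.41 against 5.6 and 3.46 FPKM in wild type, 0.64), and Cd46 (0.97 and 1.38 against 0.91 and 0.64, 0.29) were above both wild-type libraries and did not pass either. The 7 regulators thus lay on both sides, 3 with positive and 4 with negative differences, and their median was -0.07. Of the 19 genes, 0 passed at 90 min with limma (4 at an unadjusted p under 0.05), against 0.0176% of all genes. Both deficient libraries were below both wild-type ones for 8 of 19, against 23.4% of all genes, and above for 3, and the median was -0.16. Beside Cd59a and Cd46, the gene above was the receptor gene Itgam, at 5.32 and 16.49 against 3.81 and 4.51 FPKM. Its difference at 90 min was 1.03 (limma adjusted p = 0.621). At 6 h Itgam was at 17.41 against 5.50 and 10.02 FPKM, so its highest values were in the same GdX-deficient libraries as those of C5ar1.

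Over time in wild type 1 of the 19 rose, against 4.39% of all genes, and 5 fell, against 6.32%. C1qbp, encoding a mainly mitochondrial protein first found as a binder of C1q heads, rose by 1.49 (SE 0.32, limma adjusted p = 0.0201), from 94.98 and 122.56 to 300.29 and 310.32 FPKM. Cd55, encoding the decay accelerating factor that dismantles convertases, fell by 1.68 (adjusted p = 0.0206), from 31.26 and 30.69 to 7.50 and 10.74 FPKM. Cr2, the receptor of B cells and follicular dendritic cells for C3d, fell by 1.58 (adjusted p = 0.0217), from 42.19 and 32.81 to 11.97 and 11.66 FPKM. Itgax, the alpha chain of complement receptor 4, fell by 1.51 (adjusted p = 0.0166), the terminal component C6 by 1.27 (adjusted p = 0.0271) and Cd93, once described as a C1q receptor, by 1.10 (adjusted p = 0.0405). B cell markers (5 of 5 measured) went from 1424 and 1293 to 456 and 457 summed FPKM over the same time in wild type, with 5 of 5 differences negative and 1 past the threshold. Dendritic cell markers, which include Itgax, went from 32.0 and 34.9 to 15.8 and 18.0 (4 of 5 tested negative, 3 past the threshold). Itgax is 1 of these 3 and gave 9.30 and 11.52, then 2.41 and 3.66 FPKM, of the sums, so the list is not separate from it. The part of B cells and dendritic cells in the falls was not tested. In GdX-deficient spleen at 6 h Cd55 was at 52.70 and Cr2 at 69.60 FPKM. Without the filter on low values none of these 6 passed, with adjusted p between 0.0516 (Itgax) and 0.0797 (Cd55 and Cr2), and C6 (0.0637) and Cd93 (0.0891) did not after rescaling without the globin genes. Without the first wild-type library at 90 min Cd55 alone among them passed, and C1qbp was at an adjusted p of 0.0800, Cr2 at 0.0847, Itgax at 0.0660, C6 at 0.120 and Cd93 at 0.190. Without the second, Itgax (0.136), C6 (0.236) and Cd93 (0.307) did not pass. Without the first wild-type library at 6 h, C6 (0.0553) and Cd93 (0.0964) did not pass, nor did Cd93 without either GdX-deficient library at 90 min (0.0515 and 0.0524) or with only the 4 libraries compared (0.0538). With genotype as a covariate 1 of the 19 passed, C1qbp at 1.12 (adjusted p = 0.0460), against 2.79% of all genes higher and 5.44% in either direction. It was lost without any 1 of 5 libraries (every library of wild type and the second GdX-deficient one at 90 min), with adjusted p of 0.0790 to 0.172, and with each other filter or scaling (0.0508 to 0.111).

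At 6 h, 18 of the 19 were higher in the GdX-deficient library than in both wild-type libraries, the exception being C1qbp at 108.33 FPKM, below both. Of all genes, 54.9% were above both, also as deposited. That share was 39.0% after quantile normalization and 63.4% after rescaling, but the 19 were not counted under these scalings. In the pooled fit Cr2 was higher by 2.46 (limma adjusted p = 0.0246), Cd55 by 2.43 (adjusted p = 0.0275) and Itgax by 1.84 (adjusted p = 0.0364), 3 of 19 against 2.91% of all genes called higher. Without the filter on low values none of the 3 passed (adjusted p = 0.0810, 0.0887 and 0.0759), and Itgax did not after rescaling without the globin genes (0.0536). B cell markers, all 5 of 5, summed to 456 and 457 FPKM in wild type and 1658 in GdX-deficient spleen at 6 h, and dendritic cell markers to 15.8 and 18.0 against 35.0. Of the dendritic cell sums, Itgax itself gave 2.41 and 3.66 against 13.27 FPKM. The part of these cells in the values of the 3 genes was not tested. The test of the difference between the times passed for 0 of the 19 with limma (10 at an unadjusted p under 0.05), against 8 of 11378 genes overall (1136 at an unadjusted p under 0.05).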

How the data were processed

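RNA of 7 mouse spleens was sequenced on a BGISEQ-500 instrument after oligo-dT selection or rRNA depletion, per the labels' protocols. Per the file headers, the authors deposited a table of FPKM with a column for each library. The submitters' processing notes name HISAT, HISAT2 2.0.4, Bowtie2 and RSEM with build GRCm38.p5, without their order. Whether counting used strand is not given in the sources used here. Gene positions and promoters are RefSeq's (GRCm38.p6, a patch of the same primary assembly).

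Values were converted to log2(FPKM + 1). Genes averaging 1 FPKM or more, 11378 in all, entered limma 3.58.1 (R 4.3.3, empirical Bayes with a trend), with two-sided p-values adjusted by Benjamini-Hochberg over all of them and a threshold of 0.05. Fold changes on this scale understate those of low genes. Genotype at 90 min and time in wild type came from a fit of the 4 groups over 7 libraries, and the comparisons with a covariate from additive fits. The tests of genotype at 6 h, of time in GdX-deficient spleen and of the difference between times, from the fit of the 4 groups, were added after seeing the data, as were the counts of members lying outside the other group and the medians under each setting. SD is over 2 libraries, and each library is a separate mouse per the design text. Depth was estimated from the steps of low FPKM values in genes with 1 transcript. It is an estimate, and the intervals implied cover counting error only.

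The members and lists were chosen with earlier results of these data known. Named were all 10 members, Ubl4a, from each other complement list genes with the smallest p-values and those past the threshold, and the 5 genes nearest to 3 member profiles. Gm44504, C4a, the regulators Cd59a and Cd46 and single marker genes fall outside this and were chosen after their values were seen. The tests were checked on simulated data. Alternatives were another pseudocount (0.1), no filter or a mean FPKM of at least 5, quantile normalization, rescaling without globin genes, the replicate number as a block, only the 4 libraries compared, and leaving out each library.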

Additional observations from a re-analysis of the deposited data

How the results depend on the processing

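Cfb kept its direction and its side of the threshold over time in wild type and over all libraries in each alternative run. No member passed at 90 min in any of them. Numbers of genes called moved more. At 90 min 2 genes were called, 181 when only the 4 libraries compared were fitted, and 2 to 183 with 1 library left out. Over time in wild type 1218 were called, 635 with no filter on low values, 708 after rescaling without globin genes and 450 to 1774 with 1 library left out. Over time with genotype as a covariate 619 were called, 104 with no filter, 327 after rescaling and 154 to 1204 with 1 library left out. For genotype with time as a covariate the count was 5, and 2 to 1674. For genotype at 6 h it was 450, 90 with no filter, 233 at a mean FPKM of at least 5, 270 after quantile normalization, 255 after rescaling and 627 to 3035 with 1 library left out. For the difference between times it was 8, 0 with a pseudocount of 0.1, at a mean of at least 5 or after rescaling, 3 with no filter, 4 after quantile normalization and 0 to 238 with 1 library left out. For time in GdX-deficient spleen it was 0, 22 with no filter and 0 to 236 with 1 library left out. Members called ranged with 1 library left out from 1 to 4 over time in wild type, 1 to 2 over time with genotype as a covariate, 0 to 1 for genotype with time as a covariate, 0 to 2 for genotype at 6 h and for time in GdX-deficient spleen, and 0 to 1 for the difference between times. Members below both wild-type libraries at 90 min were 8, 5 after quantile normalization and 3 after rescaling. The cause was not tested.

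The replicate numbers of the titles give 2 pairs for genotype at 90 min and for time in wild type, and 1 pair where the single GdX-deficient library at 6 h enters, and nothing in the labels says that a number marks shared animals or days. Deviations of equal numbers correlated across genes at -0.12 between the genotypes at 90 min, 0.0797 between GdX-deficient at 90 min and wild type at 6 h and 0.768 between wild type at the 2 times. With the replicate block 2345 genes were called over time in wild type, 12 for genotype with time as a covariate, 3383 at 6 h, 37 for time in GdX-deficient spleen and 80 for the difference between times. C1qbp did not pass with it over time with genotype as a covariate (1.11, limma adjusted p = 0.0592). With it 1 member, C5ar1, passed at 6 h (1.62, limma adjusted p = 0.0237), and Cfp passed over time in wild type (adjusted p = 0.0308). With the numbers crossed at 90 min, 2 genes and 0 members were called.

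Signs turned for small differences. For genotype with time as a covariate, quantile normalization gave 0.0316 for C1qa, 0.233 for C1qb, -0.172 for C2 and 0.028 for Cfp, and rescaling gave 0.232 for C1qb, 0.0321 for C4b, 0.0497 for C3 and 0.0604 for Cfp. For genotype at 6 h Cfb was 0.235 and 0.237 after them, and over time in wild type C5ar1 was -0.0242 after rescaling. With 1 library left out, genotype with time as a covariate ranged from -0.34 to 0.23 for C1qb, -0.30 to 0.42 for C1qc, -0.21 to 0.18 for C2, -0.637 to 0.0605 for C4b and -0.79 to 0.14 for C3. Time in wild type ranged from -0.425 to 0.0248 for C4b, -0.0771 to 0.537 for C3 and -0.11 to 0.26 for C5ar1. Time with genotype as a covariate ranged from -0.55 to 0.13 for C1qa, -0.24 to 0.20 for C1qb, -0.20 to 0.48 for C4b and -0.0165 to 0.472 for C5ar1, and C1qc passed without the GdX-deficient library at 6 h (-0.97, limma adjusted p = 0.0396). Genotype at 6 h ranged from -0.13 to 0.74 for C1qa and -0.25 to 0.17 for Cfb, and for C5ar1 time in GdX-deficient spleen from -0.194 to 1.27 and the difference between times from -0.27 to 1.20. The depth of 19500000 to 21800000 fragments limits C3ar1, and the 6 h comparison rests on 1 GdX-deficient library.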

Other observations

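Genes outside the complement lists were ranked by how closely their profile over the 7 libraries, centred on the log2(FPKM + 1) scale, matched that of a member, among 10993 genes. The root-mean-square difference is given, and all points share libraries, depth and cell makeup. Nearest to C5ar1 were Fgd2 (0.0568), Arid3b (0.117), Dnajb1 (0.122), Sfxn5 (0.123, at 0.46 to 2.99 FPKM) and Alox5 (0.124), against a median of 0.629 over all genes. Fgd2, encoding an exchange factor for Cdc42, was at 23.61 and 29.61 FPKM in wild type and 30.97 and 83.49 in GdX-deficient spleen at 90 min, and at 25.82 and 33.45 against 67.92 at 6 h. Alox5, encoding 5-lipoxygenase of leukotriene synthesis, was at 0.49 and 0.47 against 0.39 and 3.42, and at 0.19 and 0.62 against 2.26 FPKM. Both were chosen for a profile like that of C5ar1, so their high values in the same 2 GdX-deficient libraries follow from that choice. Alox5 was below 1 FPKM in the remaining libraries.

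Nearest to the mean of the 3 C1q chains were Exoc3l4 (0.0989), Plekhf1 (0.104), Gpr157 (0.117), Fam131a (0.122) and Ctsb (0.124), against a median of 0.518. Ctsb, encoding the lysosomal protease cathepsin B, was at 598 and 638 FPKM in wild type and 541 and 435 in GdX-deficient spleen at 90 min, and at 474 and 448 against 709 at 6 h. Nearest to Cfb were Bcl2l14 (0.252), Tubb3 (0.255), Ly6c1 (0.294), Anxa4 (0.304) and Ms4a6d (0.317), against a median of 1.08. Bcl2l14 was at 3.36 to 5.19 FPKM in the 4 libraries of 90 min and 19.72 to 20.67 in the 3 of 6 h, and Ms4a6d at 21.38 to 31.93 and 86.29 to 143.84.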
